A study of Rattus norvegicus with 20 samples.

Results

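The hypoxia-responsive genes Hif1a, Adm, Vegfa, Bnip3, Slc2a1 and Egln3 were followed through diclofenac treatment of rat heart cells. They were chosen by gene name among the non-control probes of the array, with each probe's written description checked, and glycolytic enzymes were left out. They are 6 of the 30470 genes measured, and 8 probes report on them: 2 for Hif1a, 2 for Vegfa and 1 for each of the other genes.

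The cells were primary cultures from hearts of neonatal rats, labelled cardiomyocytes and grown for 1 day before treatment. Diclofenac, a nonsteroidal anti-inflammatory drug that blocks cyclooxygenases, was given at 3 reference concentrations, called 1/25, 1/5 and 1, whose molar values the labels do not give. The groups were 1/25, 1/5 and 1 for 24 h, 1/25, 1/5 and 1 for 6 h, with 3 arrays each, and untreated cultures with 2 arrays and no stated time. Total RNA of each sample was labelled with a single dye, Cy3, and read on 1 Agilent array per sample, 20 in all. Nothing in the labels says that the arrays of a group came from separate cultures, so the p-values measure the spread between arrays, which may be technical. The label says cells of 1 type, but the RNA is bulk RNA, in which fewer cells of a type and less RNA per cell cannot be told apart.

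When oxygen is plentiful, prolyl hydroxylases such as the product of Egln3 mark the alpha subunit of hypoxia-inducible factor (HIF), and the marked protein is bound by VHL and degraded. When oxygen is low the alpha subunit persists, pairs with ARNT and switches on genes for blood vessel growth, glucose uptake and mitochondrial turnover. Hif1a encodes that subunit and is controlled mainly through the stability of its protein, which an array does not measure. Egln3 and the other 4 genes are well known HIF targets.

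The probe sequences are shown because each value below is the signal of 1 such probe, and because the pairs for Hif1a and for Vegfa read different stretches of their genes. For Vegfa the whole probe is shown, and the capitals mark the start codon at its 5′ end; for the other genes the last 30 of 60 bases are shown, and the capitals mark the letters of a polyadenylation signal. All are read 5′ to 3′ from the scanner files.
Hif1a, single-spot probe: aactgtactgttttgttatatcaAATAAAc
Hif1a, 10-spot probe: atcatgatgctgttgatcttataatgattc
Adm, 10-spot probe: gaagaaaaaacattgtgtcttctataatct
Vegfa, 10-spot probe: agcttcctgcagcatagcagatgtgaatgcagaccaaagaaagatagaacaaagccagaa
Vegfa, single-spot probe: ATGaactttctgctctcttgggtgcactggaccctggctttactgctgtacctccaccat
Bnip3, single-spot probe: attcagtagcaaggagagactaaggttacc
Slc2a1, 10-spot probe: catgagaaggacctcggaggctgagaactt
Egln3, single-spot probe: agacgaccccagcctgtatgctccattttt

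The files place the probes on build rn3. The Hif1a probes lie at chr6:96467271-96467330 and chr6:96466730-96466789 on the plus strand, so the single-spot probe is the one farther downstream. The 10-spot Vegfa probe spans chr9:10525902-10526287, which is 386 bases for a probe of 60, so its alignment is split over more of the genome than its own length. The single-spot Vegfa probe lies upstream of it at chr9:10519066-10519125. The others lie at chr1:168492973-168493032 (Adm, plus strand), chr1:198833427-198833486 (Bnip3, minus strand), chr5:139724005-139724064 (Slc2a1, plus strand) and chr6:74455084-74455143 (Egln3, minus strand). Exons and untranslated regions were not assigned, since no annotation of this build was used here.

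RefSeq promoter windows on build GRCr8, running from 250 bases before to 50 bases after each start, were found for all 6 genes, with 2 windows for Vegfa. The core to which HIF binds was searched as ACGTG and as GCGTG on both strands. At least 1 was held by 3 of the 7 windows: the Hif1a window held ACGTG 3 times, the Bnip3 window held each of them 2 times, and the Slc2a1 window held ACGTG 1 time and GCGTG 3 times. The windows of Adm, Vegfa and Egln3 held neither. Of all 33469 windows, 19.25% held ACGTG, 29.7% held GCGTG and 41.64% held either, so 3 of 7 is close to the share of all promoters.

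Values are log2 signals relative to the 75th percentile of the same array, so 0 is the level of that percentile. The share of spots well above background was 64.1% to 88.2% over the arrays, and 4.93% to 10.8% of spots were saturated, that is, at the top of the scanner's range. Replicate 3 of 1/5 for 24 h stood apart from all other arrays: its 75th percentile was 3165 scanner units, against 9623 to 21937 on the rest, and it had the lowest share of spots above background. The arrays sat on 6 slides scanned on 3 days, and no slide or day held untreated arrays together with 24 h arrays. All 10 cardiomyocyte markers on the list were well above background on every array. Markers of other cells were present too: 4 of 7 fibroblast, 3 of 6 endothelial, 1 of 4 smooth muscle, 4 of 6 leukocyte and 2 of 5 erythroid markers were well above background on every array, and Hbb was so on none.

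**Figure D1:**
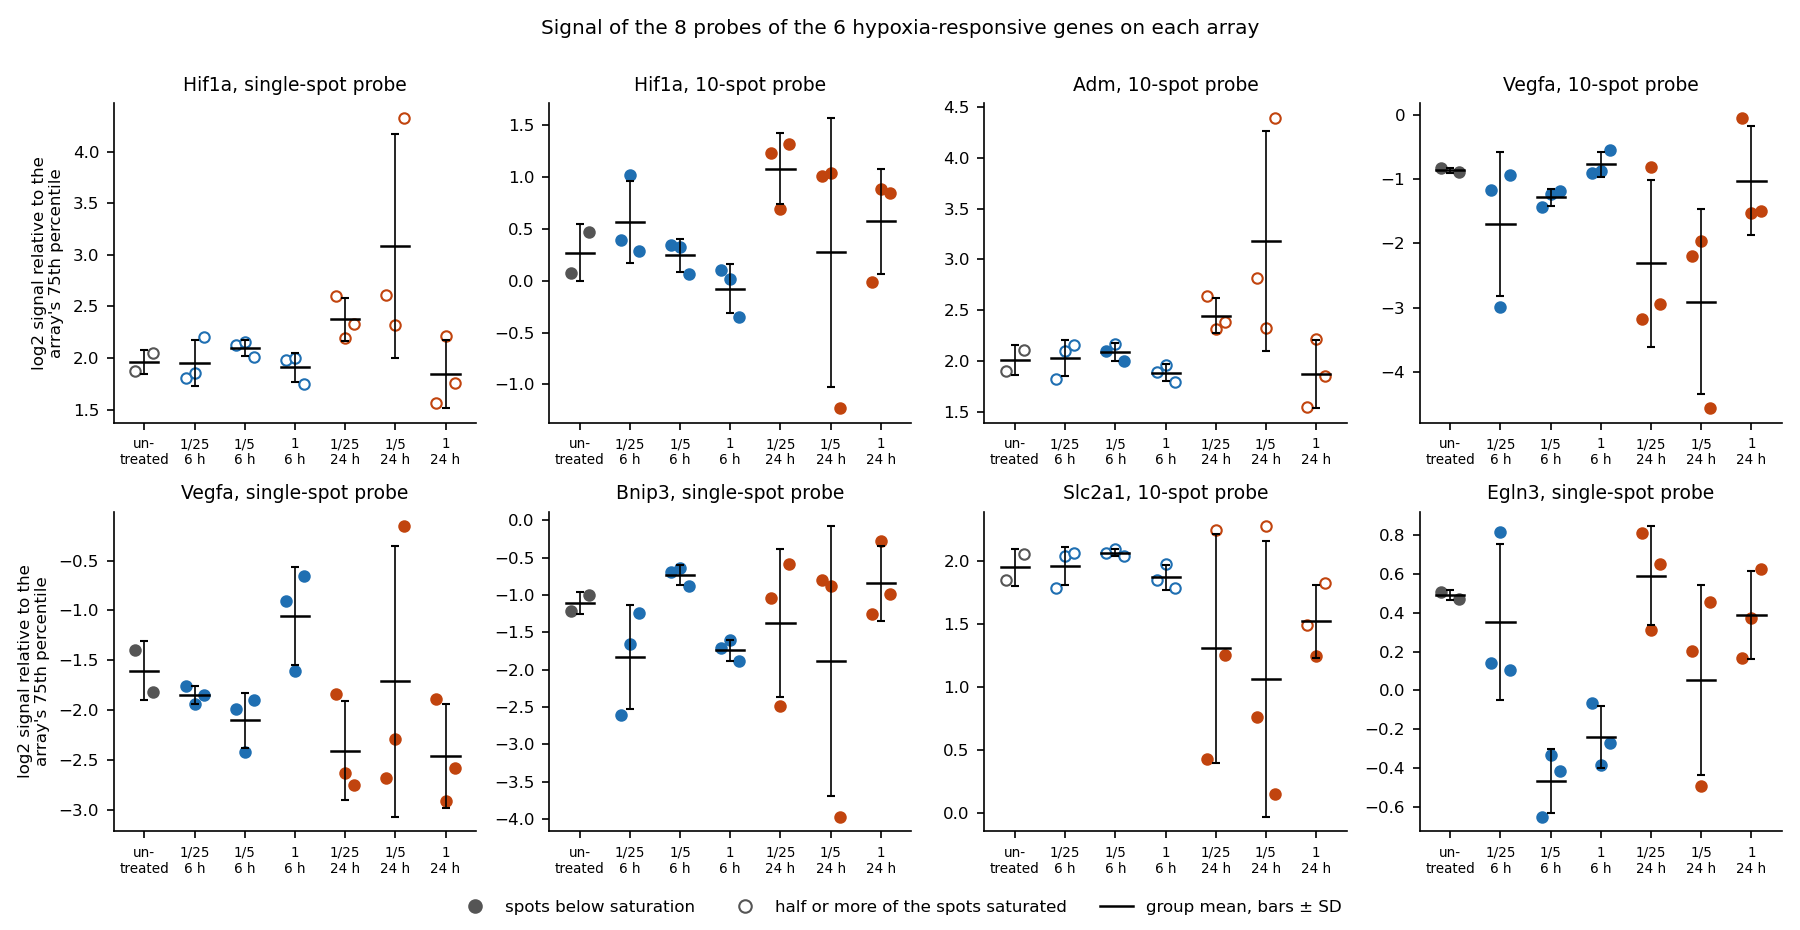
Each point is 1 array, and the vertical axis is the log2 signal relative to that array's 75th percentile. Columns run from untreated through the 6 h groups to the 24 h groups, lines are group means with bars of 1 SD, and open points mark arrays on which at least 50% of a probe's spots were saturated. The Adm and single-spot Hif1a probes are open almost throughout, and the 24 h groups are the most widely spread.

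None of the 6 genes passed an adjusted p of 0.05 in any of the 22 comparisons or in either F test of the limma fit. The closest was Egln3 in the mean of the 24 h against 6 h differences, at an adjusted p of 0.0654. That comparison called 21.0% of 30468 genes, 7.70% as higher and 13.3% as lower, against 0 of the 6 members. Of its called genes 36.6% were higher, and this split was 60.2% after quantile normalization and 77.5% in the authors' deposited table of ratios. Before adjustment, 3 of the 6 members had p below 0.05 in it, against 41.1% of all genes. The 3 were Egln3, Slc2a1 and Adm, and the values of Slc2a1 and Adm rest on partly saturated readings. The median change of the 6 members was 0.26, with 4 of 6 above 0, beside a median of -0.09 over all genes. Among those 4 were Adm and Hif1a by its saturated probe, whose readings were capped on 16 and all of the 18 treated arrays, so their signs and this median are those of the capped readings.

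Egln3, the oxygen-sensing prolyl hydroxylase that is itself a HIF target, had its lowest levels after 6 h at the higher concentrations. At 24 h its probe read 0.81, 0.31 and 0.65 at 1/25, 0.20, -0.49 and 0.45 at 1/5, and 0.17, 0.37 and 0.62 at 1. At 6 h it read 0.14, 0.82 and 0.11 at 1/25, -0.65, -0.33 and -0.42 at 1/5, and -0.07, -0.38 and -0.27 at 1, and the untreated arrays read 0.51 and 0.47. All 6 arrays of 1/5 and 1 for 6 h lay below both untreated arrays and below 8 of the 9 arrays at 24 h, the exception being replicate 2 of 1/5 for 24 h. At concentration 1 the 24 h and 6 h arrays did not overlap, with a change of 0.63 ± 0.30 (SE) and an adjusted p of 0.372. At 1/5 the change was 0.52 and at 1/25 it was 0.24, and the arrays overlapped in both. Between concentrations, Egln3 differed at 1/5 from 1/25 by -0.82 ± 0.30 (SE) on the log2 scale at 6 h without overlap and by -0.54 ± 0.30 at 24 h with overlap, at adjusted p of 1.00 and 0.483.

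Averaged over the concentrations, the log2 change of Egln3 between 24 h and 6 h was 0.46 ± 0.18 (SE), 1.38-fold, with a 95% interval of 0.09 to 0.83 before adjustment. Without replicate 3 of 1/5 for 24 h, the array that stood apart, the change was 0.40 with an adjusted p of 0.060. The call was decided by single arrays: the adjusted p was 0.0160 without replicate 2 of 1/5 for 24 h, 0.0402 without replicate 2 of 1/25 for 24 h and 0.0301 without replicate 2 of 1/25 for 6 h. It was 0.0358 after quantile normalization and 0.0228 in the authors' deposited table of ratios. The change stayed above 0 under all 30 alternatives tried, between 0.40 and 0.86.

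Against untreated, the log2 mean of Egln3 differed by -0.96 ± 0.34 (SE) at 1/5 for 6 h and by -0.73 ± 0.34 at 1 for 6 h, and neither group overlapped the untreated arrays. Neither change passed, at an adjusted p of 1.00 in both in limma's fit, with 0 of 6 members and 0% of genes called at 1/5 for 6 h, and 0 of 6 and 0.00656% at 1 for 6 h. Egln3 was the only member with an unadjusted p below 0.05 in either. On the slide that held 2 arrays of 1 for 6 h and both untreated arrays, the difference was -0.71. In the order of the 7 group means, from 0.59 at 1/25 for 24 h down to -0.47 at 1/5 for 6 h, the only neighbours farther apart than the larger of their SDs were 1 for 6 h, at -0.24, and 1/5 for 6 h.

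Hif1a, the regulated subunit of HIF, did not pass by either probe. The single-spot probe, near the polyadenylation signal, was saturated on all 20 arrays. Its scanner signal ran from 55887 to 69462 units, a 1.24-fold span, while its log2 value relative to the array ran from 1.57 to 4.33. The highest value fell on replicate 3 of 1/5 for 24 h, the array with the lowest 75th percentile, and the lowest on replicate 1 of 1 for 24 h, the array with the highest. The relative value of this probe moved with the scale of the array, and no fold is given for it.

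The other Hif1a probe, printed in 10 spots, was never saturated. At 24 h it read 1.23, 0.69 and 1.31 at 1/25, 1.01, 1.04 and -1.23 at 1/5, and -0.01, 0.89 and 0.84 at 1. At 6 h it read 0.40, 1.02 and 0.29 at 1/25, 0.35, 0.33 and 0.06 at 1/5, and 0.10, 0.02 and -0.35 at 1, and untreated arrays read 0.07 and 0.47. Both untreated arrays lay below 7 of the 9 arrays at 24 h, the exceptions being replicate 3 of 1/5 and replicate 1 of 1, and the 24 h and 6 h arrays overlapped. Its mean change between 24 h and 6 h was 0.39 ± 0.28 (SE), with a 95% interval of -0.19 to 0.98 before adjustment and an adjusted p of 0.277, and without replicate 3 of 1/5 for 24 h it was 0.64. The median SD between its spots on 1 array was 0.13, against SDs between arrays of a group of 0.16 to 1.30. The step between 1 for 6 h, at -0.08, and 1/5 for 6 h, at 0.25, was the only one in its order of means larger than the SDs.

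**Figure D2:**
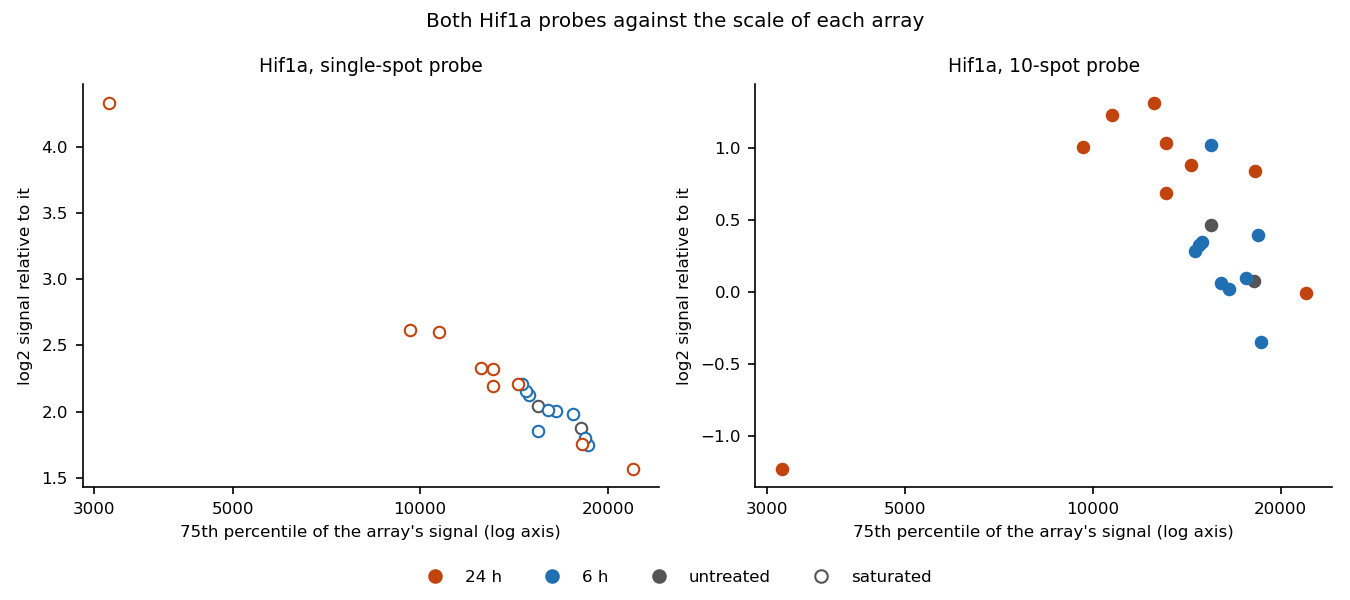
Log2 signal of both Hif1a probes on each of the 20 arrays (vertical axes) against the 75th percentile of that array's signal in scanner units (log axis). The saturated single-spot probe at left follows the scale of the array almost as a line, from 4.33 at 3165 units to 1.57 at 21937. The unsaturated 10-spot probe at right does not form such a line, with -1.23 at 3165 units. On the other arrays it also tended to be lower where the percentile was higher, from 1.01 at 9623 units to -0.01 at 21937.

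Slc2a1, which encodes the glucose transporter GLUT1, was read by a probe that was saturated in some groups and not in others. It was saturated on both untreated arrays and on all 9 arrays at 6 h, and on only 4 of the 9 arrays at 24 h. At 24 h the probe read 0.43, 2.24 and 1.26 at 1/25, 0.76, 2.28 and 0.15 at 1/5, and 1.49, 1.25 and 1.83 at 1. At 6 h the 9 saturated readings ran from 1.78 to 2.10 with a median of 2.04, and the untreated readings were 1.85 and 2.05. The 5 unsaturated arrays, replicates 1 and 3 at 1/25, replicates 1 and 3 at 1/5 and replicate 2 at 1, all lay below every 6 h and untreated array. The order among the saturated arrays of either time has no meaning.

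With saturated spots taken at their values, the log2 change of Slc2a1 between 24 h and 6 h was -0.67 ± 0.27 (SE), with an adjusted p of 0.0796. It was -0.65 at 1/25, -1.0 at 1/5 and -0.35 at 1. Since both times held saturated arrays, these are differences of the capped readings, and neither a fold nor a bound is given. The value rests on single arrays: without replicate 2 of 1/5 for 24 h it was -0.87 with an adjusted p of 0.00826, without replicate 2 of 1/25 for 24 h it was -0.82 with 0.0208, and without replicate 3 of 1/5 for 24 h it was -0.52 with 0.108. After quantile normalization the adjusted p was 0.0387, and in the authors' deposited table of ratios it was 0.350. The change lay below 0 under all 28 alternatives that gave one, from -0.87 to -0.28.

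**Figure D3:**
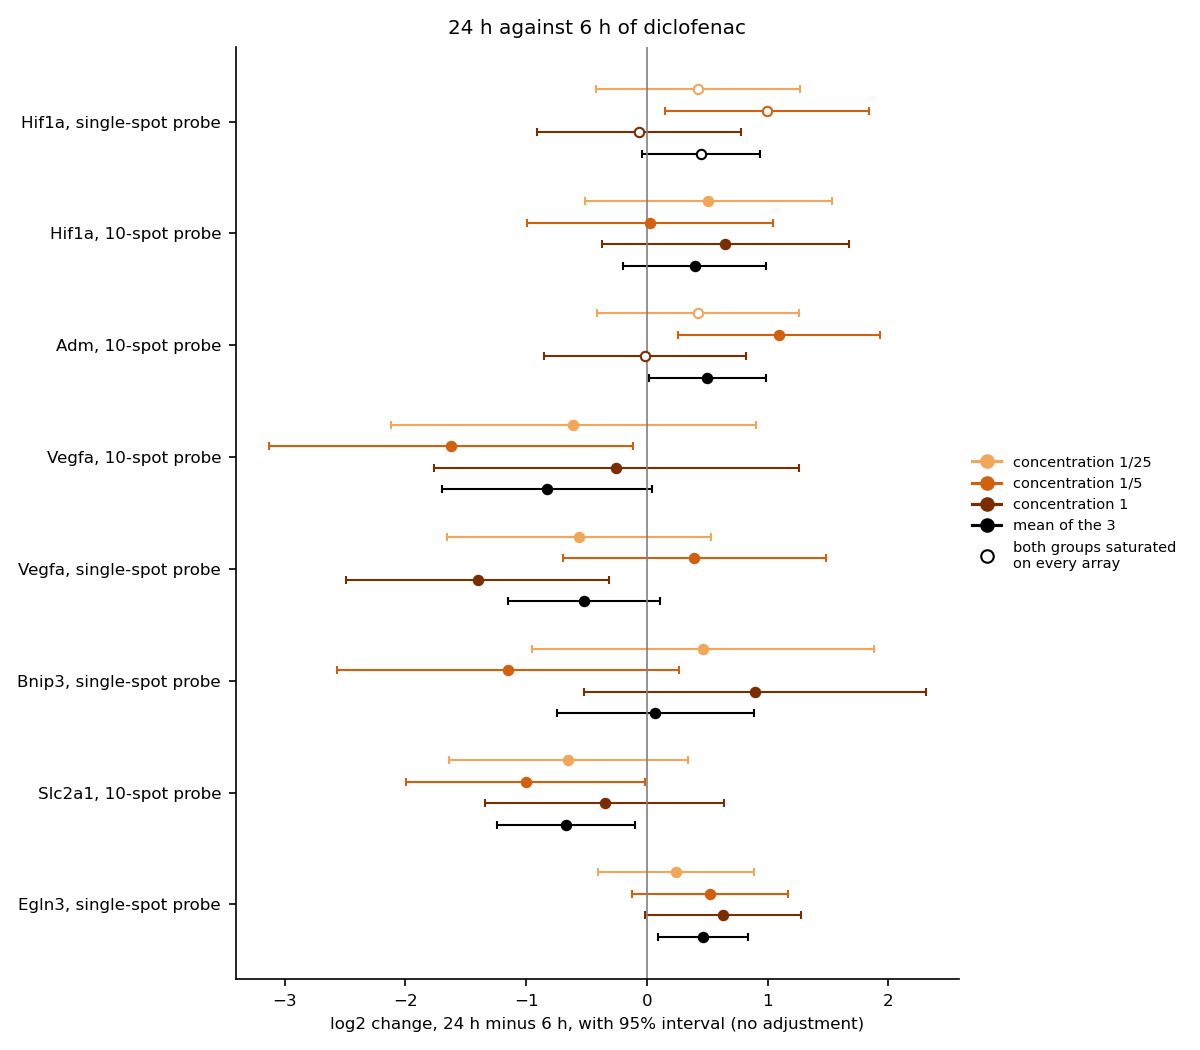
Log2 change between 24 h and 6 h for each of the 8 probes at each concentration and in their mean, with 95% intervals that are not adjusted for the number of genes; each probe was fitted apart. Open points mark comparisons in which both groups were saturated on every array, for which no fold is given. The mean intervals of Slc2a1, Egln3 and Adm leave out 0, those of Slc2a1 and Adm from partly saturated readings, and those of the other probes include it.

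Vegfa, the growth factor for blood vessels, was read by 2 probes that did not move together. Over the 20 arrays their values had a Pearson r of -0.11, given as a description. The 10-spot probe, at 24 h, read -3.17, -0.81 and -2.95 at 1/25, -2.20, -1.96 and -4.56 at 1/5, and -0.04, -1.53 and -1.50 at 1. At 6 h it read -1.18, -2.99 and -0.94 at 1/25, -1.43, -1.24 and -1.18 at 1/5, and -0.90, -0.87 and -0.54 at 1, and untreated arrays read -0.83 and -0.89. All 3 arrays of 1/5 for 24 h lay below every array of 1/5 for 6 h and below both untreated arrays; the lowest of them, replicate 3, was not well above background.

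By the 10-spot probe the 1/5 for 24 h mean was -2.91 ± 1.44 (SD, n = 3), against -0.86 ± 0.04 (SD, n = 2) untreated, a change of -2.05 ± 0.80 (SE) with an adjusted p of 0.129. That comparison called 0.184% of all genes and 0 of 6 members, although 3 members and 30.4% of genes had an unadjusted p below 0.05. Of those 3 members, 2 were Hif1a and Adm, saturated on every array of both groups. Between 24 h and 6 h at 1/5 the change was -1.62 with an adjusted p of 0.129, in a comparison that called 0.0985% of genes and 0 of 6 members, with 4 members (Hif1a, Adm, Vegfa and Slc2a1, of which Vegfa alone was free of saturated arrays) and 33.0% of genes at an unadjusted p below 0.05. Without replicate 2 of 1/5 for 24 h those changes were -2.52 with an adjusted p of 0.0312 and -2.10 with 0.0421. Without replicate 3, they were -1.22 with an adjusted p of 0.336 and -0.80 with 0.480. At 1/25 the change between 24 h and 6 h was -0.61 and at 1 it was -0.25, with overlapping arrays in both. Among the 24 h groups the 3 arrays of 1 lay above all 3 of 1/5, a difference of 1.88 ± 0.71 (SE) with an adjusted p of 0.156.

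The single-spot Vegfa probe, which begins at the start codon, gave another order. At 24 h it read -1.84, -2.63 and -2.75 at 1/25, -2.68, -2.29 and -0.15 at 1/5, and -1.89, -2.91 and -2.58 at 1. At 6 h it read -1.75, -1.94 and -1.85 at 1/25, -1.99, -2.42 and -1.90 at 1/5, and -0.91, -1.61 and -0.66 at 1, and untreated arrays read -1.40 and -1.82. It was highest at 1 for 6 h and its 3 arrays there lay above all 3 at 1 for 24 h, a change of -1.40 ± 0.52 (SE) between 24 h and 6 h with an adjusted p of 0.235. At 1/5 its change was 0.39, against -1.62 for the 10-spot probe, and replicate 3 of 1/5 for 24 h, the lowest of all arrays by the 10-spot probe, was the highest by this one. The difference between the 24 h changes at 1 and at 1/5 was -1.79 by this probe and 1.37 by the 10-spot probe, at adjusted p of 0.636 and 0.648. Averaged over concentrations both probes lay below 0, at -0.83 for the 10-spot and -0.52 for the single-spot probe, with adjusted p of 0.137 and 0.181. Without replicate 3 of 1/5 for 24 h these were -0.55 and -0.78, and the change of the single-spot probe at 1/5 was -0.38. The call of Vegfa turned on 1 array, since without replicate 2 of 1/25 for 24 h the 10-spot probe was at -1.08 with an adjusted p of 0.0380.

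Bnip3, a mitochondrial protein that promotes mitophagy and cell death, had no common direction. At 24 h it read -1.04, -2.48 and -0.58 at 1/25, -0.80, -0.88 and -3.97 at 1/5, and -1.26, -0.28 and -0.99 at 1. At 6 h it read -2.60, -1.65 and -1.24 at 1/25, -0.69, -0.63 and -0.88 at 1/5, and -1.72, -1.61 and -1.89 at 1, and untreated arrays read -1.21 and -1.0. At 6 h the 3 arrays of 1 lay below all 3 of 1/5 and below both untreated arrays, and at 24 h the 3 groups overlapped.

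At concentration 1 the log2 change of Bnip3 between 24 h and 6 h was 0.90 ± 0.67 (SE), with no overlap between the arrays, and at 1/5 it was -1.15 ± 0.67, where replicate 3 at 24 h read -3.97. The difference between those changes was 2.05, with a 95% interval of 0.05 to 4.04 before adjustment and an adjusted p of 0.625, and 0.00328% of genes and 0 of 6 members were called for this interaction, Bnip3 being the only member with an unadjusted p below 0.05. On the slide that held all 3 arrays of 1/5 for 6 h and replicate 3 of 1 for 6 h, the difference of 1 from 1/5 was -1.15, and on the slide with the untreated arrays that of 1 for 6 h from untreated was -0.56. Without replicate 3 of 1/5 for 24 h, the change at 1/5 was -0.11 and the difference between the changes was 1.0, at adjusted p of 0.906 and 1.00. Averaged over the concentrations the change was 0.07 ± 0.39 (SE), and its 95% interval ran from -0.75 to 0.88. Without that array it was 0.42 with an adjusted p of 0.201. No neighbours in the order of its 7 group means were farther apart than the larger of their SDs.

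Adm encodes adrenomedullin, a peptide that widens blood vessels. At least 50% of its spots were saturated on all 9 arrays at 24 h, on 7 of 9 at 6 h and on both untreated arrays, 185 of 200 spots in all. Its log2 values ran from 1.55 to 4.40 at 24 h, from 1.80 to 2.16 at 6 h and from 1.90 to 2.11 untreated, again highest on replicate 3 of 1/5 for 24 h. Only 1/5 for 6 h had arrays with fewer than 50% of spots saturated, replicates 1 and 3. These still had 3 of 9 and 4 of 10 used spots saturated. Over all arrays the scanner signal ran only from 63967.4 to 67912.5 units, while the relative values moved with the scale of the array. Readings were capped at both times, so no fold or bound is given. At 1/5 the log2 change between 24 h and 6 h was 1.09, with an adjusted p of 0.113. Without replicate 3 of 1/5 for 24 h it was 0.48 with an adjusted p of 0.326. Averaged over concentrations the log2 change was 0.50 ± 0.23 (SE) with an adjusted p of 0.110, and it was 0.64 with 0.0216 without replicate 2 of 1/5 for 24 h. Against untreated, no fold is given at 1/25 and 1 for 6 h or at any concentration for 24 h, since both groups were saturated on every array.

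**Figure D4:**
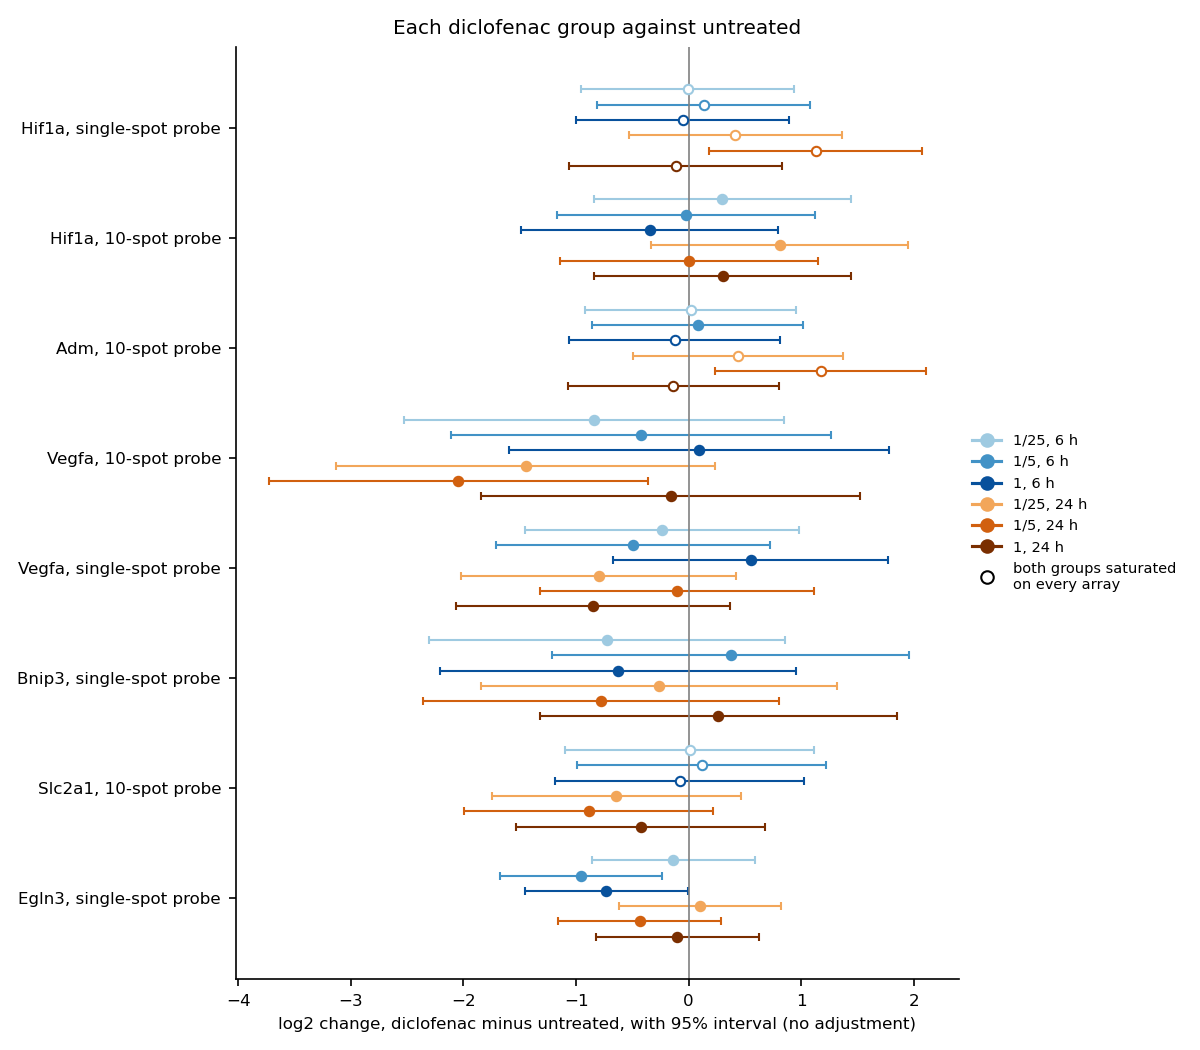
Log2 change of each of the 6 diclofenac groups against untreated, for each of the 8 probes, with 95% intervals that are not adjusted for the number of genes; each probe was fitted apart and open points mark groups that were both saturated on every array. Most intervals include 0, and those of Egln3 at 1/5 and 1 for 6 h and of the 10-spot Vegfa probe at 1/5 for 24 h lie below it, while those of Adm and of the saturated Hif1a probe at 1/5 for 24 h, drawn open, lie above it.

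Over the remaining comparisons with untreated, limma called 0 of 6 members in each, against 0% of genes at 1/25 for 6 h, 0.00328% at 1/25 for 24 h, 0.00328% at 1 for 24 h and 0% for the mean of the 6 treated groups. At an unadjusted p below 0.05, 0 members stood in each of these 4. Between 24 h and 6 h, 0 of 6 were called at 1/25, where 0% of genes were, and 0 of 6 at 1, where 0.226% of genes were, with 0 members at an unadjusted p below 0.05 in both. Between concentrations at 6 h, no member was called for 1/5 against 1/25 (0% of genes), 1 against 1/5 (0.00656%) or 1 against 1/25 (0.0197%), and 1, 0 and 0 members had an unadjusted p below 0.05. At 24 h the shares of genes called in the same 3 comparisons were 0.00328%, 0% and 0.00328%, no member was among them, and 0, 3 and 0 had an unadjusted p below 0.05, the 3 including the capped readings of Hif1a and Adm. With concentrations averaged over both times, 0% of genes were called in each of the 3 comparisons, and 1, 3 and 1 members had an unadjusted p below 0.05, again with Hif1a and Adm among the 3. For the interaction of time with 1 against 1/25, 0% of genes were called and 0 members had an unadjusted p below 0.05. In the F test over the 7 groups 0.686% of genes were called and over the 6 treated groups 1.02%, and the lowest adjusted p of a member was 0.199 and 0.162, both for Egln3; Egln3 and Adm had an unadjusted p below 0.05 in both.

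Other genes of the pathway did pass in the mean of the 24 h against 6 h differences, in both directions. The counts per list stand beside the 7.70% of all genes that rose and the 13.3% that fell in this comparison, and nothing particular to a list is read from them. Of 12 measured angiogenesis and signalling targets, 3 rose and 3 fell, with a list median of -0.07. Flt1, a receptor for VEGF, fell to between -6.13 and -3.14 at 24 h, with a median of -4.55, against -2.94 to -1.24 at 6 h with a median of -2.01, and the arrays did not overlap. Its change was -2.48 ± 0.26 (SE) with an adjusted p of 0.000166, and it also fell against untreated at 1/5 for 24 h, with a log2 change of -3.26 and an adjusted p of 0.0148. Angpt2, which acts on the receptor TEK, was higher at 24 h than at 6 h by 2.21 on the log2 scale, with an adjusted p of 0.00298. Its highest reading, -2.20, fell on replicate 3 of 1/5 for 24 h. Without that array the change was 1.87, with an adjusted p of 0.000540. Its probe was well above background on all 9 arrays at 24 h and on 0 of 9 at 6 h. It therefore entered the fit only through the 24 h groups, where it was high. For a bound, the 6 h side was set to the lowest signal well above background on each array, or the probe's own where higher. Over all arrays this gave at least 3.36-fold, and the bound without replicate 3 of 1/5 was not computed. Cxcr4, the receptor for the chemokine CXCL12, fell by 2.18 on the log2 scale with an adjusted p of 0.00516; its values ran from -6.86 to -3.39 at 24 h, against -4.68 to -2.01 at 6 h, and the arrays overlapped. The probes of Flt1 and Cxcr4 were well above background on 7 and 6 of the 9 arrays at 24 h and on all 9 at 6 h. These 3 genes passed under all 29 alternatives that gave them a value.

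Among 15 genes of oxygen sensing and the HIF complex, 1 rose and 0 fell. It was Rbx1, a subunit of the ligase that holds VHL, with a change of 0.81 and an adjusted p of 0.0261; its probe was saturated on 11 arrays, and it was highest, at 4.35, on replicate 3 of 1/5 for 24 h. Among 10 mitochondrial and metabolic targets, Fundc1, a mitophagy receptor, rose by 0.87 and Slc2a3, the glucose transporter GLUT3, fell by 0.86, at adjusted p of 0.0252 and 0.049995. Without replicate 3 of 1/5 for 24 h, Slc2a3 was at -0.63 with an adjusted p of 0.0530. Among 18 targets of matrix, growth and feedback, Kdm3a, a histone demethylase, rose by 0.72, and Ddit4, an inhibitor of mTORC1, and P4ha1, a collagen prolyl hydroxylase, fell by 0.69 and 0.91, at adjusted p of 0.0424, 0.0230 and 0.0397. The medians of these 3 lists were 0.17, 0.33 and -0.09, beside -0.09 over all genes. None of these 9 named genes changed sign under an alternative, but Slc2a3, Kdm3a and P4ha1 passed under only 10, 13 and 14 of 30. In the authors' deposited table of ratios the lists of oxygen sensing, angiogenesis, mitochondria and matrix had 7, 4, 5 and 6 members that rose and 0, 3, 0 and 0 that fell. The shares of all genes in the reported fit do not apply there. Of the 30470 genes measured, 8602 rose and 2500 fell in that table, and nothing particular to a list is read from these counts. These lists share the arrays and were picked with earlier results of these data known.

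**Figure D5:**
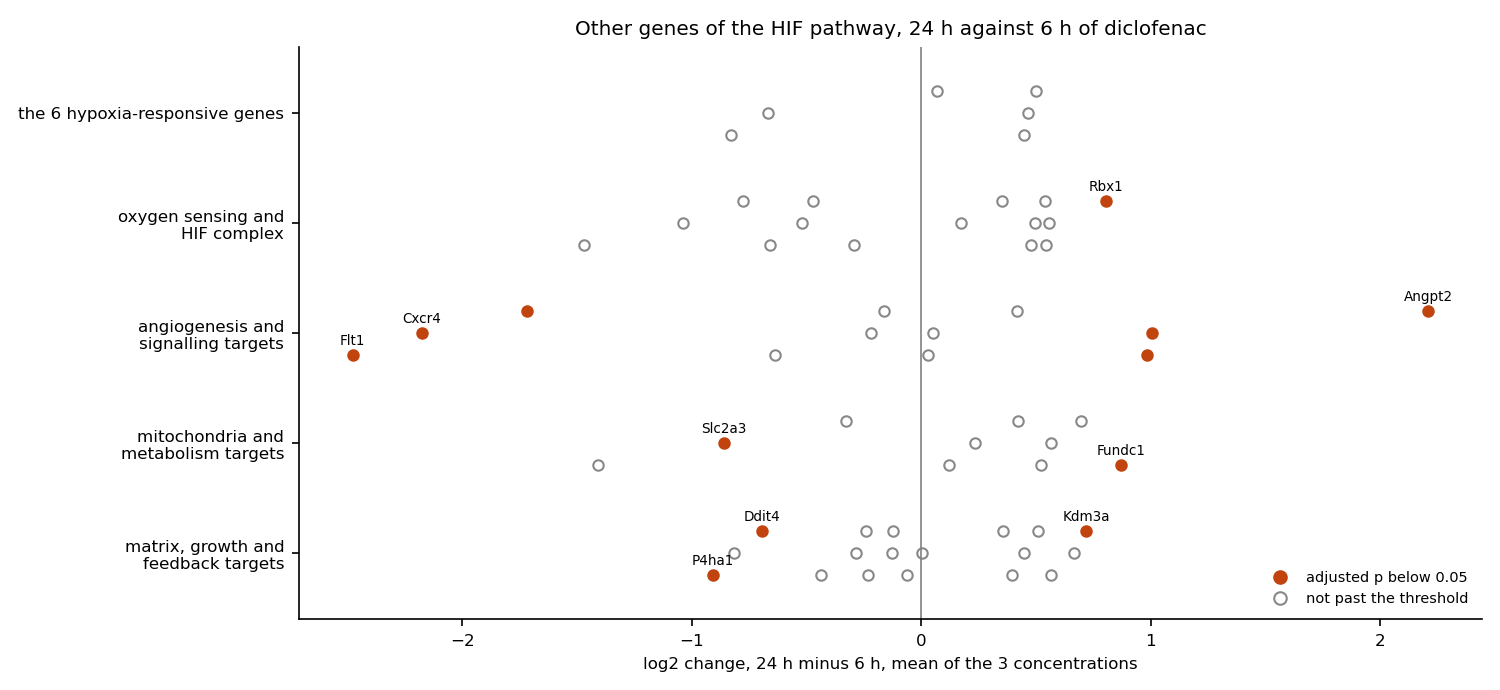
Log2 change between 24 h and 6 h, averaged over the 3 concentrations, for the 6 hypoxia-responsive genes and for 4 lists of other HIF pathway genes. Filled points passed an adjusted p of 0.05 and those named in the text carry their symbols; none of the 6 genes in the top row passed, and Flt1, Angpt2 and Cxcr4 lie farthest from 0 among the named genes.

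Cell type markers were also called in the same comparison, in which 13.3% of all genes fell and 7.70% rose. Of the smooth muscle markers 2 of 4 fell, and of the cardiomyocyte markers 2 of 10. In addition, 2 of 6 endothelial and 2 of 5 leukocyte markers rose, 1 of 7 fibroblast markers rose and 1 fell, and 2 of 4 erythroid markers, Slc4a1 and Rhag, fell. The probe of Rhag was well above background on only 4 arrays. Its mean was -3.55 at 1 for 6 h, against -8.05 at 1/25 for 6 h and -7.95 untreated, so its averaged fall rests largely on the 1 for 6 h group. Rhag also entered the fit only through that group, where it was high. The summed smooth muscle signal ran from -0.87 to 2.68 on the log2 scale at 24 h, against 1.97 to 2.58 at 6 h. The summed endothelial signal ran from 1.41 to 3.41 at 24 h, against 0.89 to 1.97 at 6 h, but it was mostly that of Kdr. Kdr had means of 2.06 at 24 h and 1.08 at 6 h, against -2.72 and -3.28 for Cldn5, the next brightest. Besides Kdr, Vwf rose by 1.72, while Cldn5 (0.57), Pecam1 (0.14), Tek (0.05) and Cdh5 (-0.71) did not pass. The probe of Vwf was well above background on only 15 arrays. Its mean was -4.12 at 24 h and -5.85 at 6 h, so its rise starts from signals near background. Kdr and Tek are on both the angiogenesis and the endothelial list. The part of these markers in the changes above was not tested. The 24 h and 6 h arrays of a concentration shared no slide, so within a concentration time and slide cannot be told apart, and a scan day was shared only by the 3 arrays of 1/25 for 6 h and replicate 1 of 1/25 for 24 h. With scan day as a block, which sets that 1 array against the 3 and assumes that it varies like the other groups, the change at 1/25 between 24 h and 6 h was 0.46 for Egln3, -1.53 for Slc2a1, -1.47 for Vegfa and 0.79 for Bnip3, at adjusted p of 0.528, 0.207, 0.403 and 0.620.

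Genes whose values were most like each member's over the 20 arrays were named from 13859 genes with a symbol, as a description. For Hif1a they were Pfn2 and Lox, with Pearson r of 0.9999 and 0.9998, and for Adm they were Rhoa and Ndfip1, with 0.9988 and 0.9984. All 4 were saturated on every array, as were 1059 genes or 3.48% of those measured. For Slc2a1 they were Pdxp and Cdk16, with r of 0.976 and 0.974, saturated on 12 and 15 arrays. The other members had unsaturated neighbours: Ikbkb and Slc30a2 for Vegfa by its 10-spot probe (0.944 and 0.942), Washc4 and Tiparp for Bnip3 (0.913 for both) and Adamts1 and Olr59 for Egln3 (0.870 and 0.867). All these values share the arrays and their scaling.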

How the data were processed

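Per the file headers, the submitters made each spot's intensity with Agilent Feature Extraction 9.5.3.1, which subtracted and detrended the background within the array and did not scale between arrays. The authors' deposited table holds, per the values, the ratio of each array's scaled signal to the untreated mean and served as an alternative. Here log2 intensity was centred on each array's 75th percentile over the 43379 non-control spots. Non-uniform and outlier spots were left out, saturated spots were kept, and spots of a probe were averaged. A probe stayed if, in some group, no array had it near background (35065 of 41012), and a gene took its brightest kept probe. Gene symbols were updated through RefSeq (GRCr8).

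A mean per group was fitted over 20 arrays with limma 3.58.1 in R 4.3.3 and moderated, and p-values were Benjamini-Hochberg adjusted over all genes of a comparison, two-sided, at 0.05. The array number limits the precision. The fit was tested on simulated data. Named pathway genes are, per list, up to 3 with the smallest p among those past the threshold in a family of comparisons. Named neighbours are the 2 genes with the highest Pearson r. Members and lists were chosen with earlier results of these data known. Replicate numbers were not used to pair the arrays in the reported fit, since the labels name no pairing. Deviations of same-numbered arrays correlated with a median r of -0.04 over 57 pairs, against 0.04 over 114 pairs of other numbers. With -0.76 to 0.64 among the same-numbered pairs, this does not exclude a pairing. Among the 19 pairs of arrays of the same group, none held identical values. A gene of the pathway lists is not reported here.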

Additional observations from a re-analysis of the deposited data

How the results depend on the processing

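Counts of members past the threshold were 0 in all 24 tests of the reported fit, and in 725 of 757 counts over 33 alternatives. They stayed 0 with normexp background correction, with no filter, a stricter filter, saturated spots left out, the replicate number as a block (replicate block, 0 in all 24) and every probe fitted apart, and, chosen after seeing the data, with less saturated probes or scan day as a block. Some of these counts could not cover all 6 members. With saturated spots left out, Hif1a and Adm had no value, and Slc2a1 had none for 24 h against 6 h averaged over concentrations. With less saturated probes, Adm and Slc2a1 had no value. With slide as a fixed block, 4 tests could be made, and with scan day 9, all at 0. For 24 h against 6 h averaged over concentrations, quantile normalization called 2 members, the deposited ratios 3, slide as a random block 5 and array weights 6. The member counts that follow are not read as a result about the members. The number of all genes called under the same settings is given below only for the average of 24 h against 6 h, and not for the other comparisons. With slide as a random block the counts were 3 at 1/5 for 24 h against untreated, 5 for 24 h against 6 h at 1/5, 3 for 1 against 1/5 at 24 h and 4 in each F test. The estimated correlation within a slide was -0.168. Array weights, estimated gene by gene because the usual algorithm did not converge, called 1 at 1/5 for 6 h, 4 at 1/5 for 24 h and 2 at 1/25 for 24 h against untreated; 2, 3 and 6 for 24 h against 6 h at 1, 1/5 and 1/25; 1 for 1 against 1/5 and 2 for 1/5 against 1/25 at 6 h; 3 and 4 for 1 against 1/5 and against 1/25 at 24 h; 4 and 2 for the same averaged over times; and 6 in each F test. Leaving out 1 array gave 0 to 4 for 24 h against 6 h averaged, 0 to 5 at 1/5, 0 to 4 for 1/5 for 24 h against untreated, 0 to 3 for 1 against 1/5 at 24 h, 0 to 2 for it averaged over times, and 0 to 1 and 0 to 4 in the F tests over 7 and 6 groups; all calls came from leaving out replicate 2 of 1/5 for 24 h, 1/25 for 24 h or 1/25 for 6 h. The 24 h against 6 h average called 6410 genes, 36.6% of them higher; this was 6604 with 60.2% higher under quantile normalization, 11102 with 77.5% higher in the deposited table, 4243 with the stricter filter, 14832 with slide as a random block, 21234 with array weights and 2312 to 13463 with 1 array left out. The median of all genes shifted by 0.11 and 0.40 under quantile normalization and in the deposited table. Egln3 was 0.44 and 0.86 there, and Slc2a1, by capped readings, -0.84 and -0.28. The replicate block left 4673 genes called. For most probes, differences between arrays in the deposited table were those used here shifted by 1 amount per array. That table is thus the same measurement under another scaling. The causes of the differences between the alternatives were not tested. Saturation leaves no folds for Adm, Slc2a1 and the single-spot Hif1a probe, but not for the 10-spot one.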
